A study of Mus musculus with 12 samples.

Results

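Keratin, defensin and secretoglobin genes were taken from the RefSeq table of mouse assembly GRCm38.p6 by symbol: protein-coding genes whose symbol starts with Krt and a digit, Krtap, Defb, Defa or Scgb. This gave 220 of 21631 protein-coding genes on the autosomes and X: 53 keratin genes (Krt), 56 keratin-associated protein genes (Krtap), 42 beta defensin genes (Defb), 29 alpha defensin genes (Defa) and 40 secretoglobin genes (Scgb). The symbol alone decides membership, although the families were picked for study with earlier results of these data known. For each gene, the deposited DMC1 hotspots of testis were searched at both ends, and the gene clusters were compared with the DNA on either side of them.

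The series has 12 samples, of which 2 are DMC1 samples from wild type mice of strain C57BL/6JCrl and 2 are DMC1 samples from mice carrying Ankrd31 tm1Atot, a knockout allele of Ankrd31 by the sample titles. All 4 came from whole testis of adult males and used the same goat antibody against DMC1. DMC1 is the recombinase that coats single-stranded DNA at meiotic double-strand breaks, and single-stranded DNA sequencing (SSDS) recovers that DNA, so that an enriched interval, a hotspot, is a place where recombination starts. The series asks how ANKRD31, a protein of the break-forming machinery, shapes where breaks are made. The knockout mice are labelled by their allele alone, with a strain background not given in the sources used here. Each genotype has 1 list, so no spread between animals can be set against any difference below.

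Keratins are the intermediate filament proteins of epithelia. Type I and type II keratins pair into filaments, keratin-associated proteins cross-link the filaments of hair, and most of these genes are active in skin, hair follicles or other epithelia. Defensins are small antimicrobial peptides, the alpha family in Paneth cells of the gut and much of the beta family in epithelia including the epididymis. Secretoglobins are small secreted proteins of airway, salivary and lacrimal glands. In the mouse most wild type hotspots lie at binding sites of PRDM9, a histone methyltransferase, away from promoters. Where PRDM9-directed placement fails, breaks fall at sites that already carry H3K4me3, chiefly active promoters. The families are known chiefly for tissue-restricted expression outside the germ line. Expression was not measured in the files used here, so whether each member is silent in these testes was not tested.

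The promoters of a few members and of neighbouring genes are shown because member starts were poorer in CG than those of other genes, by values given further on. Each window runs from 250 bases before to 50 bases after the RefSeq start, 5′ to 3′ on the strand of the gene, with every CG dinucleotide in capitals. Krtap13 lies at chr16:88751579-88751878 (minus strand), Krt2 at chr15:101818120-101818419 (minus), Defb30 at chr14:63037797-63038096 (minus), Krt18 at chr15:102027966-102028265 (plus) and Defa22 at chr8:21162027-21162326 (plus). The neighbours are Eif1, which encodes a translation initiation factor, at chr11:100319699-100319998 (plus), and Acvr1b, an activin receptor gene, at chr15:101173822-101174121 (plus).
Krtap13: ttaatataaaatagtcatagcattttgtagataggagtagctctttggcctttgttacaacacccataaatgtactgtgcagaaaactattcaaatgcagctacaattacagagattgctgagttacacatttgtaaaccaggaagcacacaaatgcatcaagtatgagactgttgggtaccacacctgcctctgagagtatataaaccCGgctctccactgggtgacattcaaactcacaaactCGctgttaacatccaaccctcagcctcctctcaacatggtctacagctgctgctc
Krt2: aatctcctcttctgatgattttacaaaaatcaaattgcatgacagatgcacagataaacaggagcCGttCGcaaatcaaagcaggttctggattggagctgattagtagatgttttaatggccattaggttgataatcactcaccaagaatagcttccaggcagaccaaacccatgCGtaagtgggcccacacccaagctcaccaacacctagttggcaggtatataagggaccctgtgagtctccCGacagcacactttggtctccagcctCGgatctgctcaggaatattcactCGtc
Defb30: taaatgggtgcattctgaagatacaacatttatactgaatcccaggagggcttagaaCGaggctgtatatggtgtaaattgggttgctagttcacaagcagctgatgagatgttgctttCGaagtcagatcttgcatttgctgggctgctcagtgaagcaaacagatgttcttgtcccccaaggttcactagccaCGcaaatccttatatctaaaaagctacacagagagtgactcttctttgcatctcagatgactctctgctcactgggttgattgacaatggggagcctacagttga
Krt18: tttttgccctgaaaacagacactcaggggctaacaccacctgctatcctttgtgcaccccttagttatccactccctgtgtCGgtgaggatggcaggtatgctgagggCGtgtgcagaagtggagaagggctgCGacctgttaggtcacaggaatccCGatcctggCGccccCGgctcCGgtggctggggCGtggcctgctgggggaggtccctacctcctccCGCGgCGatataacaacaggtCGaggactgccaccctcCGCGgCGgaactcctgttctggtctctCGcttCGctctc
Defa22: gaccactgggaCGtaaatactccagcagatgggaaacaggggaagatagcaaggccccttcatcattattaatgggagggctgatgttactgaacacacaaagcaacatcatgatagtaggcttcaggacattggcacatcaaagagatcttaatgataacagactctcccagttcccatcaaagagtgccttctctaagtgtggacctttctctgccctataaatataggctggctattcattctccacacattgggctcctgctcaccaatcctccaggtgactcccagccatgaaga
Eif1: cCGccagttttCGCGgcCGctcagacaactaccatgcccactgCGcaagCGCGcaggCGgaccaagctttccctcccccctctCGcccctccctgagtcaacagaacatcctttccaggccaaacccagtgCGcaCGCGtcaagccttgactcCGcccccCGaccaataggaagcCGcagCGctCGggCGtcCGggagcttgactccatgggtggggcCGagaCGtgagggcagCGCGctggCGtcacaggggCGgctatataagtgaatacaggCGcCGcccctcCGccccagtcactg
Acvr1b: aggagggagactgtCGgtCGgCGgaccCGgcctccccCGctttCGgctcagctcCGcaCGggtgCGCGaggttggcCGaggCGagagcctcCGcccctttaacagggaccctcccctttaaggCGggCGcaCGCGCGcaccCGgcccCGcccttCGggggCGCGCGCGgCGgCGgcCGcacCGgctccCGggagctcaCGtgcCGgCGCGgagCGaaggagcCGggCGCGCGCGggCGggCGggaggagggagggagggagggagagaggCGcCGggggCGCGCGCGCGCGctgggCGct
Krtap13, Krt2 and Defb30 are members with a knockout hotspot within 1 kb of their start, and they hold 2, 6 and 3 CG dinucleotides. Krt18, a keratin of simple epithelia, holds 17 and had no hotspot near it. Defa22 holds 1. The non-members Eif1 and Acvr1b, just outside keratin clusters, hold 28 and 51, and each had a knockout-only hotspot, centred 87 and 20 bp from its start.

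Hotspots at the ends of the member genes were few in both genotypes. A gene was counted when the centre of a hotspot lay within 1 kb of either of its ends. In the wild type, 2 of 220 members (0.909%, exact interval 0.110 to 3.25) had one, against 1.99% of all protein-coding genes. In the knockout, 5 of 220 (2.27%, 0.742 to 5.22) had one, against 27.1%. For knockout-only hotspots, which overlap no wild type hotspot, the count was 3 (1.36%, 0.282 to 3.93) against 25.5%. For shared hotspots it was 2, with a background of 1.70%, and for wild-type-only hotspots 0, with a background of 0.296%. Intervals of shares, read counts and densities here and below are exact 95% intervals that cover counting error only. For a count of 0 the limit given in the text is instead 3 counts over the number of genes or the length, which is slightly lower than the exact upper bound drawn in the plots. For wild type hotspots the interval includes the share of all genes, but a count of 2 is too small to show whether members match or fall short of it. For knockout hotspots the members lay far under the share of all genes.

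**Figure D1:**
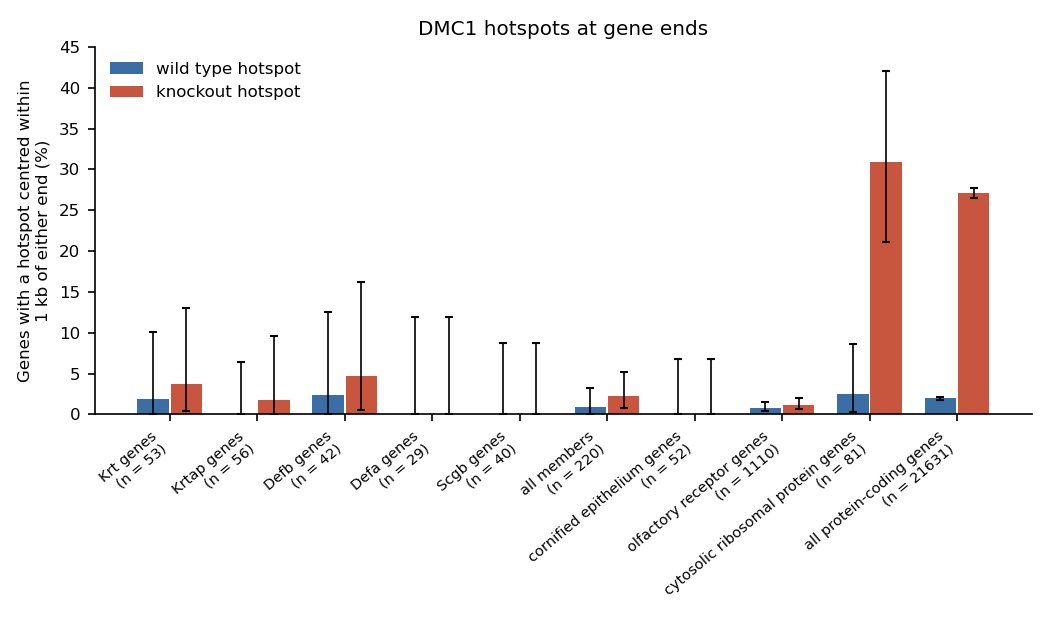
Share of genes (y axis, percent) with a wild type (blue) or knockout (red) hotspot centred within 1 kb of either end, for each gene family and for comparison lists (x axis, number of genes in brackets). Error bars are exact 95% intervals for counting error. Knockout bars of the member families stay at or under 4.76%, while all protein-coding genes reach 27.1%.

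By family, the wild type hotspots lay at 1 of 53 keratin genes and 1 of 42 beta defensin genes. Knockout hotspots lay at 2 keratin genes (3.77%, 0.460 to 13.0), 1 of 56 keratin-associated protein genes (1.79%, 0.0452 to 9.55) and 2 beta defensin genes (4.76%, 0.582 to 16.2). None of the 29 alpha defensin genes and none of the 40 secretoglobin genes had a hotspot of either list at an end, counts of 0 that allow shares of up to 10.3% and 7.5%. Among keratins grouped by role, 2 of 11 epidermal keratin genes had a knockout hotspot (Krt2 and Krt10), or 18.2% (2.28 to 51.8). That interval includes the 27.1% of all protein-coding genes. Of simple epithelium keratin genes 0 of 5 did, with an exact upper bound of 52.2%, which is also above 27.1%. Of hair and root sheath keratin genes 0 of 20 did, with an exact upper bound of 16.8%, under 27.1%. The intervals of the roles overlap, and a difference between roles was not tested.

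Other gene lists of the same tissues and of contrasting use were set beside the members. Of 52 cornified epithelium genes, which encode proteins of the skin barrier such as loricrin, filaggrin and the Sprr and Lce families, 0 had a hotspot of either list at an end, which allows up to 5.77%. Of 15 antimicrobial secretion genes 1 did in both lists: Lyz1, a lysozyme gene on chromosome 10, whose shared hotspot had a wild type strength of 268 and a knockout strength of 53. Of 1110 olfactory receptor genes, another family that lies in clusters, 9 (0.811%) had a wild type and 13 (1.17%, 0.625 to 1.99) a knockout hotspot. Of 81 cytosolic ribosomal protein genes, active in every cell, 2 (2.47%) had a wild type and 25 (30.9%, 21.1 to 42.1) a knockout hotspot.

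The 5 members with a knockout hotspot had strengths of 34 to 90. Strength is the number of reads in the hotspot minus a background estimate, as the authors deposited it. Krtap13, a hair keratin-associated protein gene (chromosome 16, 88750744 to 88751628), had the strongest, a knockout-only hotspot with a strength of 90 (100 reads, Poisson interval 81.4 to 122) centred 278 bp from its start and inside the gene. Defb39 (chromosome 8, 19052825 to 19064921) had one of 41 (41 reads, 29.4 to 55.6), 587 bp beyond its 3′ end. Krt10, the type I keratin of differentiated epidermis (chromosome 11, 99385254 to 99397449), had one of 34 (39 reads, 27.7 to 53.3), 788 bp inside its 3′ end. The median over autosomal knockout-only hotspots was 74, so that Krtap13 lay above it and the other two below. All 3 lay under 105, the median of the whole knockout list. Their ranks were 12704, 20906 and 21574 of 22034.

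The other two members had shared hotspots, which were also the 2 wild type hotspots at member ends. Krt2, a type II keratin of upper epidermis (chromosome 15, 101810689 to 101818956), had a wild type strength of 209 (214 reads, 186 to 245) and a knockout strength of 50 (55 reads, 41.4 to 71.6). It was centred at the gene's 5′ end as the gene table gives it, 15 bp inside the gene in the wild type and 66 bp beyond it in the knockout. The start of the promoter window printed above lies further in, and from that start the hotspot was centred 772 and 853 bp upstream. Each strength was made relative by dividing it by its list's median over autosomal shared hotspots (182 and 151), which gave a log2 of knockout over wild type of -1.79, with a counting interval of -2.45 to -1.18. Defb30 (chromosome 14, 63034087 to 63037846) had a wild type strength of 100 (110 reads, 90.4 to 133) and a knockout strength of 63 (68 reads, 52.8 to 86.2), a log2 ratio of -0.40 (-1.09 to 0.28). Its hotspot was centred 799 and 917 bp upstream of the start. For Krt2 the read intervals of the genotypes do not overlap, and for Defb30 they do not either, but its interval of the relative strength includes no change.

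A further 3 members lay just outside the limit. Krtap4-7 had a shared hotspot 1716 bp from an end in the wild type (strength 499) and 1694 bp in the knockout (194). Krtap7-1 had one at 2021 bp (486) and 1956 bp (170). Defb19 had a knockout-only hotspot at 1715 bp, inside the gene, with a strength of 132. Just inside the limit were Defb30 (799 and 917 bp), Krt10 (788 bp) and Defb39 (587 bp).

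The distance from a gene to its nearest hotspot was longest for alpha defensin and secretoglobin genes. Over all protein-coding genes the median distance from a gene end was 49.8 kb to a wild type hotspot and 13.3 kb to a knockout hotspot. Beta defensin genes had medians of 54.4 and 38.2 kb, keratin-associated protein genes 60.1 and 46.4 kb, and keratin genes 80.0 and 102 kb. The keratin median was thus longer in the knockout, where many keratin genes of chromosome 15 had the hotspot of Krt2 as their nearest. Wild type quartiles of these families overlapped, at 21.2 to 94.1 kb for beta defensin, 23.5 to 145 kb for keratin-associated and 27.7 to 137 kb for keratin genes. Alpha defensin genes had medians of 527 and 528 kb, all but equal, and secretoglobin genes 647 and 641 kb. Within 50 kb of a wild type hotspot were 35.8% of keratin, 42.9% of keratin-associated, 47.6% of beta defensin, 0% of alpha defensin and 7.5% of secretoglobin genes, against 50.1% of all protein-coding genes.

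Whether the DNA of these families kept its wild type hotspots was asked over whole clusters. A cluster was a run of at least 3 members of related families (keratin with keratin-associated, alpha with beta defensin) with gaps of at most 500 kb. This gave 10 clusters with 212 members over 7.58 Mb. The other 8 members lie alone or in a pair: Defb18, Defb41, Krtap28-13, Scgb1a1, Scgb1c1, Scgb2a2, Scgb3a1 and Scgb3a2, and none of them had a hotspot within 1 kb. Among them the nearest wild type hotspot was that of Krtap28-13, 12780 bp away with a strength of 47. The airway secretoglobin gene Scgb1a1 had its nearest at 84276 bp (strength 328).

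Inside the 10 clusters the wild type list had 19 hotspots, or 2.51 per Mb (Poisson interval 1.51 to 3.91). The 200 kb on either side had 24, or 6.00 per Mb (3.84 to 8.93), the rest of the same chromosomes 5.59 and all autosomes 5.27. The interval inside the clusters ends just above the lower bound of the flanks and below both other values. In the knockout the clusters had 25 hotspots (3.30 per Mb, 2.13 to 4.87), the flanks 38 (9.50, 6.72 to 13.0), and the autosomes 8.51 per Mb. Knockout-only hotspots numbered 12 inside (1.58 per Mb, 0.818 to 2.77) and 19 in the flanks (4.75, 2.86 to 7.42), against 4.03 per Mb on the autosomes.

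The pooled densities moved most with the secretoglobin cluster, without which the wild type value was 4.01 per Mb and the knockout value 5.27, and next with the keratin cluster of chromosome 15 in the wild type (1.74 without it). Without the alpha defensin cluster they were 2.61 and 3.53. The secretoglobin cluster of chromosome 7 (31263736 to 34100837, 35 genes over 2837 kb from Scgb2b1 to Scgb1b30) had no hotspot of either list, which allows up to 1.06 per Mb. The stretch free of hotspots around it was 3111 kb in the wild type, with 6 of 12644 autosomal gaps between neighbouring hotspots at least as long (it included), and 3098 kb in the knockout, where no other autosomal gap was as long. The alpha defensin cluster of chromosome 8 (20892667 to 21948622, 39 genes over 1056 kb from Defb33 to Defb13) had 2 hotspots in each list, both shared and both among the beta defensin genes Defb10 and Defb9 at its distal end. The 962 kb before them, which holds its alpha defensin genes, had none in either list. It was part of a longer stretch free of hotspots that reaches beyond the cluster, 2554 kb in the wild type and 1875 kb in the knockout. In each list 10 autosomal gaps were at least as long (it included), of 12644 and 20429.

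Near-identical promoter copies were common in these empty stretches. As a measure, each promoter window was cut into 31-base words, and the share of words that also occurred in the window of another protein-coding gene was counted on both strands. More than 50% of the words were copied in 13 of 16 alpha defensin genes with a window (81.2%) and in 14 of 29 secretoglobin genes of the chromosome 7 cluster (48.3%). The share was 0 of 36 keratin genes, 2 of 51 keratin-associated protein genes, 0 of 29 beta defensin genes and 10.2% of all protein-coding genes. All of the words of the Defa22 window printed above occurred in another gene. Read length and the handling of reads that match several places were not given in the sources used here. What part copies have in the empty stretches was not tested.

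The other 8 clusters were also counted alone. This choice was made after the 2 clusters had been seen to hold few hotspots, so the higher density that follows was fixed by it. The 8 held 17 wild type hotspots in 3.69 Mb, or 4.61 per Mb (2.69 to 7.38), beside 5.94 (3.57 to 9.27) in their flanks. Knockout hotspots numbered 23 (6.24 per Mb, 3.96 to 9.36) against 9.69 (6.58 to 13.8) in the flanks. Knockout-only hotspots numbered 12 (3.26 per Mb, 1.68 to 5.69) against 5.0 (2.86 to 8.12). In all 3 pairs the counting intervals overlap, which does not show that the densities are alike. The clusters left in this comparison hold all the keratin and keratin-associated genes that fall in clusters and most of the beta defensin genes.

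**Figure D2:**
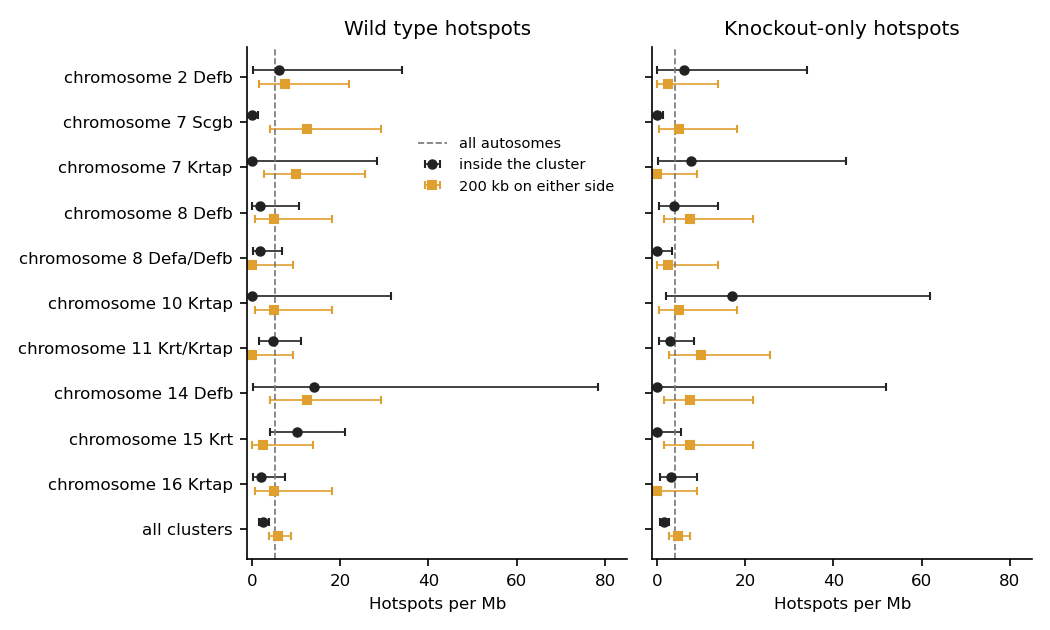
Hotspots per Mb (x axis) of the wild type list (left) and of knockout-only hotspots (right) inside each cluster (black circles) and in the 200 kb on either side (yellow squares), with exact 95% Poisson intervals and the autosomal density as a dashed line. The secretoglobin cluster has 0 in both panels with a short interval, and the keratin cluster of chromosome 15 has 10.2 wild type and 0 knockout-only hotspots per Mb.

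Knockout-only hotspots lay at gene ends in the flanks in a larger share than inside the clusters, by counts that were not tested. Of the 19 in the flanks, 13 had their centre no more than 1 kb from a protein-coding gene's end, as did 47.0% of autosomal knockout-only hotspots. Of the 12 inside clusters 3 were, those at Krtap13, Defb39 and Krt10. Counted by gene, 18 of 98 genes in the flanks (18.4%, 11.3 to 27.5) carried a knockout-only hotspot. Over all protein-coding genes the share was 25.5%, inside that interval, so flank genes did not stand above other genes. Inside the clusters 0 of the 74 genes that are not members did, which allows up to 4.05%, and of these 74 genes 64 carry the symbols of predicted genes (Gm and a number).

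Of the 18, the hotspot itself was centred in the flank for 15, named here, and beyond it for 3 that reach into the flank (Garre1, Mcph1 and Nek3). Beside the keratin cluster of chromosome 11 they were Smarce1, a subunit gene of the SWI/SNF chromatin remodeller (strength 62), Eif1 (75), Hap1 (65), and Nt5c3b with Klhl10 (45). Beside the keratin cluster of chromosome 15 they were Acvr1b (144) and the zinc finger gene Zfp740 (102). The copper transporter gene Atp7b and the glycosyltransferase gene Alg11 shared one of 284 beside the alpha defensins. The lipid enzyme gene Agpat5 (175) lay beside the beta defensins of chromosome 8. Sumo3, which encodes a small ubiquitin-like modifier (155), and Lrrc3 (56) lay beside the Krtap cluster of chromosome 10. Tbc1d20 (49), Wdfy2 (66) and Wtip (101) lay beside the defensins of chromosomes 2 and 14 and the secretoglobins. The strongest knockout-only hotspots near the chromosome 14 defensins and the secretoglobins were not at gene ends: 193, nearest to Fdft1, and 132, nearest to Garre1.

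**Figure D3:**
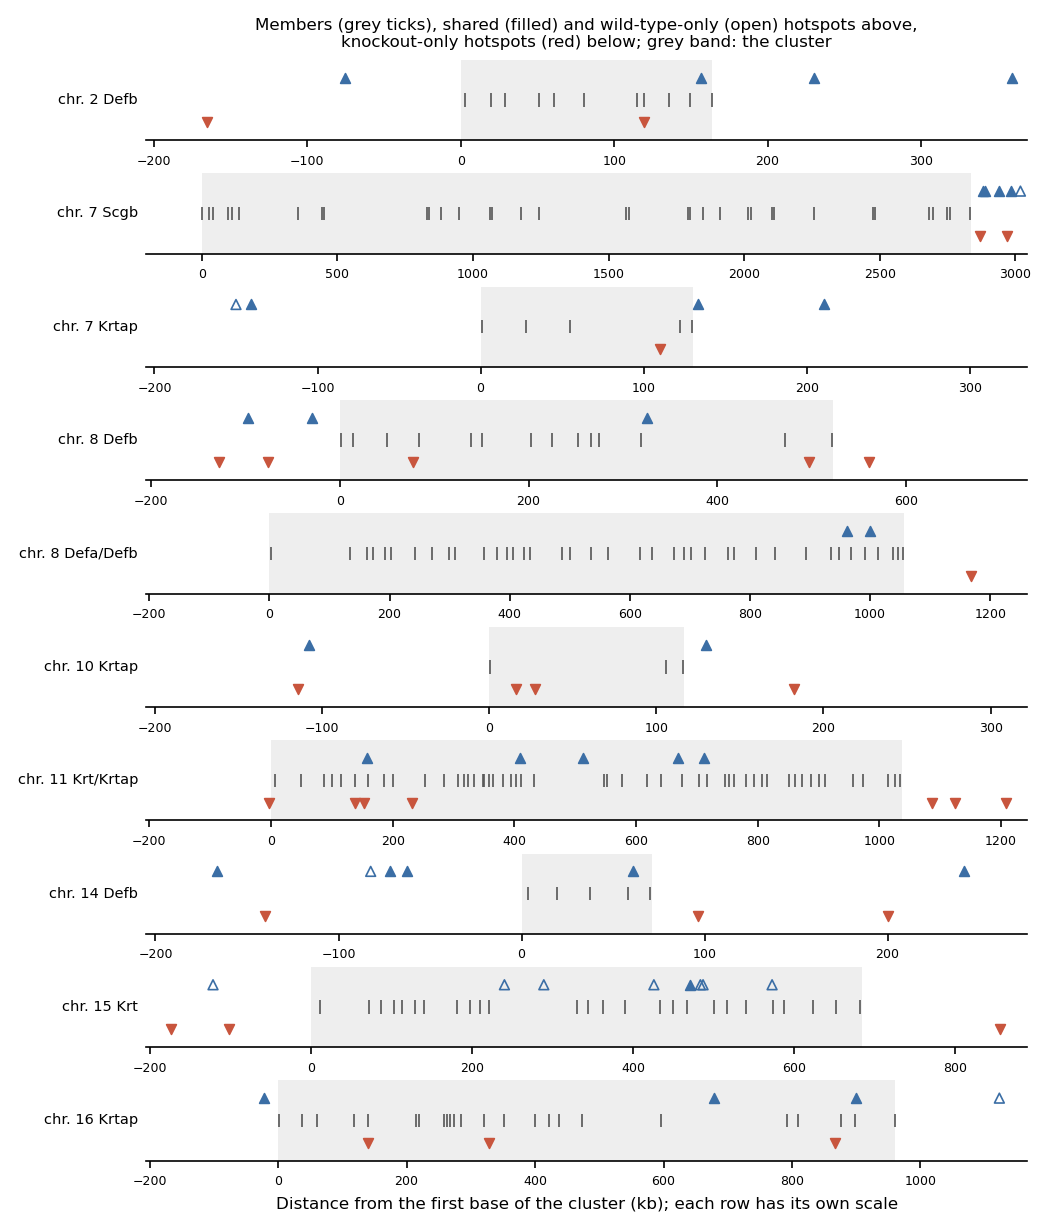
Layout of the 10 clusters (grey bands) and 200 kb on either side, as distance in kb from the first base of each cluster (x axis). Grey ticks are member genes, blue triangles above are wild type hotspots (filled when shared with the knockout, open when wild-type-only), and red triangles below are knockout-only hotspots. The secretoglobin cluster and the alpha defensin part of the chromosome 8 cluster hold none, and the keratin cluster of chromosome 15 holds 6 open triangles.

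The keratin clusters differed from each other. The type I cluster on chromosome 11 (99232761 to 100269951, 50 genes from Krt222 to Krt42) had 5 wild type hotspots, or 4.82 per Mb (1.57 to 11.2), and all 5 were shared. Its strongest, 99640514 to 99642278 near Krtap4-7, had a wild type strength of 499 and a knockout strength of 194 (log2 ratio -1.09, -1.44 to -0.75). A hotspot near Krtap31-1 had 331 and 111 (-1.31, -1.76 to -0.87), and one inside Krt10 had 94 and 31 (-1.33, -2.21 to -0.48). Another, nearest to the predicted gene Gm11595, had 41 and 79 (1.22, 0.40 to 2.07). The last, near Krtap9-5, had 29 and 33 (0.46, -0.77 to 1.76). So 3 of the 5 were over 2-fold lower, with 15.9% of autosomal shared hotspots so, and 1 over 2-fold higher, with 12.4%. A difference from the autosomes was not tested. Knockout-only hotspots of this cluster numbered 3, with strengths of 33 (inside Krt28, a root sheath keratin gene), 34 (Krt10) and 35 (nearest to Krt23).

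In the type II keratin cluster on chromosome 15 (101348315 to 102032026, 26 genes from Krt80 to Krt18) most wild type hotspots were missing from the knockout list. It had 7 wild type hotspots, or 10.2 per Mb (4.12 to 21.1), against 6.51 on the rest of the chromosome. The knockout list had 1 hotspot there (1.46 per Mb, 0.0370 to 8.15), against 8.94, and 0 were knockout-only. The shared one was that of Krt2. The 6 wild-type-only hotspots had strengths of 145 (near Krt72, a root sheath keratin gene), 84 (near Gm5414), 61 (nearest to Krt2), 56 (inside Krt4, a keratin of mucosal epithelium), 52 (near Krt75) and 34 (near Krt1). Wild-type-only hotspots of the autosomes had a median of 64, so these were of ordinary strength for their class. Of 2394 autosomal windows of 1 Mb, 25 (1.04%) held 6 or more wild-type-only hotspots, and the median window held 0. The cluster is shorter than these windows, at 683.7 kb. It was the only cluster set beside them, so the share does not measure how likely such a count is.

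The cluster on chromosome 15 supplied every wild-type-only hotspot inside the 10 clusters. In that cluster 14.3% of wild type hotspots were shared (0.361 to 57.9), against 76.6% (73.2 to 79.8) on the rest of chromosome 15 and 85% on all autosomes. Wild-type-only hotspots numbered 8.78 per Mb in it (3.22 to 19.1), against 1.52 (1.29 to 1.79) on the rest of the chromosome, itself above the 0.792 of the autosomes. Over all clusters 6 of 19 wild type hotspots (31.6%, 12.6 to 56.6) were wild-type-only, against 15% of autosomal wild type hotspots. Without it the count was 0 of 12. The wild type density inside clusters was then 1.74 per Mb (0.899 to 3.04). A hotspot missing from a list may lie just under its calling threshold.

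The keratin-associated clusters outside chromosome 11 had few wild type hotspots. The Krtap cluster of chromosome 16 (88610709 to 89571183, 24 genes) had 2, or 2.08 per Mb (0.252 to 7.52), in 960.5 kb. They had strengths of 486 and 170 near Krtap7-1 (log2 ratio -1.25, -1.61 to -0.89) and 368 and 246 at an end of the predicted gene Gm33084 (-0.31, -0.65 to 0.02). Its knockout-only hotspots numbered 3, of 90 (Krtap13), 61 and 49. The Krtap5 genes of chromosome 7 (142174532 to 142304503, 5 genes) and the Krtap genes of chromosome 10 (77720586 to 77837251, 3 genes) had 0 wild type hotspots in 130.0 and 116.7 kb, lengths too short for 0 to stand apart. The knockout list had 1 knockout-only hotspot of 47 in the former. It had 2 in the latter, of 22 and 54, inside Tspear, a gene of hearing and hair follicle biology that spans it.

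The defensin clusters had 5 wild type hotspots. The cluster of chromosome 2 (152459055 to 152623053, 11 genes) had 1, nearest to Defb36, with strengths of 137 (wild type) and 284 (knockout), a log2 ratio of 1.32 (0.89 to 1.76). Its knockout-only hotspot of 132 lay inside Defb19. The cluster of chromosome 8 from 18974914 to 19497775 (14 genes) had 1, nearest to Defb3, with 85 and 162 (1.20, 0.65 to 1.76), and knockout-only hotspots of 41 (Defb39) and 60. The cluster of chromosome 14 (62977524 to 63048606, 5 genes) had that of Defb30. At the distal end of the alpha defensin cluster, the strongest wild type hotspot of any of the 10 clusters had 677 and 750 (0.42, 0.20 to 0.63), nearest to Defb9, and the one near Defb10 had 77 and 82 (0.36, -0.34 to 1.06). All 5 were shared, a share whose interval (47.8 to 100%) includes the 85% of the autosomes. Of the 5, 1 was lower in the knockout in relative strength, against 50.5% of autosomal shared hotspots. Over 2-fold higher were 2, with 12.4% of autosomal shared hotspots so, and over 2-fold lower 0, with 15.9%. A difference from the autosomes was not tested.

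**Figure D4:**
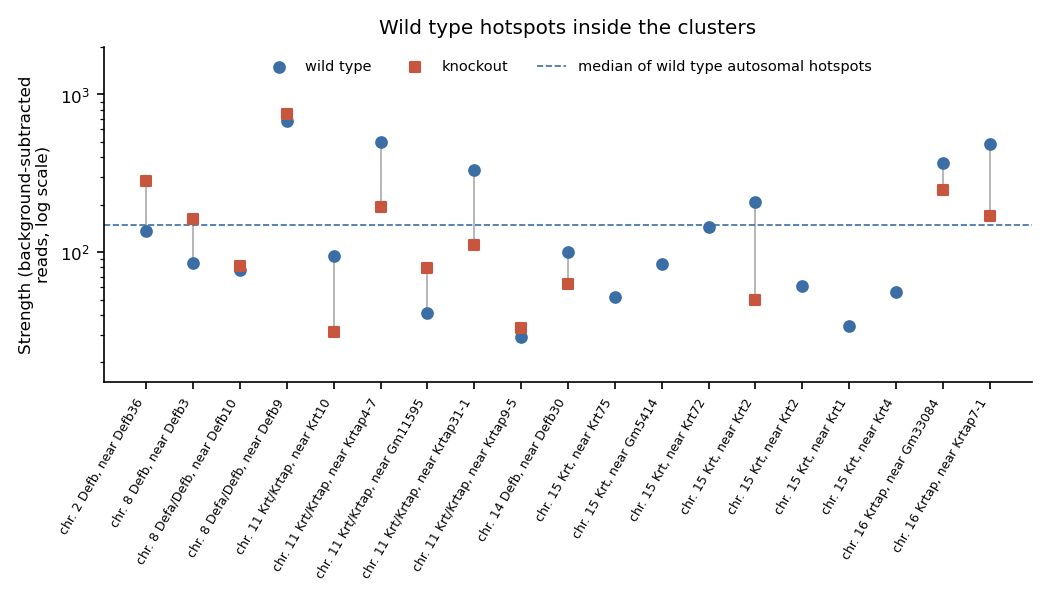
Strength in background-subtracted reads (y axis, log scale) of the 19 wild type hotspots inside the clusters, in the wild type (blue circles) and the knockout (red squares), each named on the x axis by its cluster and the gene with the nearest end. The 6 blue circles with no red square, all in the keratin cluster of chromosome 15, have no partner in the knockout list, and the dashed line is the autosomal wild type median of 149.

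The wild type hotspots inside the clusters were on the weak side. Their median strength was 94, from 29 to 677, and 6 of 19 exceeded the autosomal median of 149. In the flanks the median was 205.5. Those inside covered 31.3 kb and held 0.0852% of the summed wild type strength at a mean of 188, against a mean of 285 over the autosomes. The chromosome 15 keratin cluster weighed on these values. Without it the median was 118.5 and the mean 244, and 5 of 12 exceeded 149. As to place, 16 of 19 lay outside protein-coding genes, against 48.9% of autosomal wild type hotspots, and 3 inside a member gene (Krt10, Krt2 and Krt4). At gene ends were 3 of 19, at Krt2, Defb30 and Gm33084, against 2.62% on the autosomes. Neither comparison allows for the number and length of genes, and the share of cluster DNA inside genes was not measured. The clusters held 286 protein-coding genes in 7.58 Mb, and the autosomes 20560 in 2403 Mb.

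Over the 13 shared hotspots inside clusters the median log2 ratio was -0.31, from -1.79 to 1.32, and 7 of 13 were lower in the knockout, against 50.5% on the autosomes. The sign of that median was not stable. It was 0.02 without the chromosome 11, the chromosome 14 or the chromosome 15 cluster and 0.36 without that of chromosome 16. By count, 5 of 13 were over 2-fold lower, with 15.9% of autosomal shared hotspots so, and 3 of 13 over 2-fold higher, with 12.4%. The 5 lower ones were all in keratin clusters, where the median of the 8 shared hotspots was -1.17. In defensin clusters the median of 5 was 0.42. The flanks had lower ratios too, with a median of -0.65 over 19 shared hotspots, of which 13 were lower in the knockout. Beside keratin clusters the flank median was -0.86 (6 shared hotspots), and beside defensin clusters -0.21 (9). With 8 and 5 hotspots and 1 list per genotype, the difference between the families was not tested. Whole testis was used, so that fewer cells with a break and less DMC1 per break cannot be told apart.

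The starts of members were poor in CG. A promoter window was found for 164 of 220 members and 17274 of all protein-coding genes, and for genes with several windows the one with most CG was used. Members held a median of 2 CG dinucleotides, against 15 over all genes, and 3 of 164 (1.83%) held more than 10, against 58.4%. These were Krt7 (21) and Krt18 (17), both keratins of simple epithelia, and Krt72 (11). By family the medians were 5 in keratin, 2 in keratin-associated and 1 in beta defensin, alpha defensin and secretoglobin genes. Olfactory receptor genes had 1 and cytosolic ribosomal protein genes 21. The TATA box letters TATAAA, searched on the strand of the gene, were in 55.5% of member windows and 8.86% of all windows. On either strand the shares were 62.8% and 13.0%. They were in 93.8% of alpha defensin and 82.4% of keratin-associated windows but 10.3% of beta defensin windows. CG reads the same on both strands and cannot overlap TATAAA.

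Measured from these starts alone, 2 of 164 members (1.22%) had a wild type hotspot within 1 kb, against 0.903% of genes with a window. Knockout hotspots were at 3 (1.83%, 0.379 to 5.25), against 28.7%, and knockout-only hotspots at 1, Krtap13 (0.610%, 0.0154 to 3.35), against 27.8%. The share of other genes with a knockout-only hotspot differed with CG content. It was 0.642% with 0 to 2 CG dinucleotides, 3.23% with 3 to 5, 14% with 6 to 10, 34.0% with 11 to 20 and 49.7% with 21 or more. Members with 0 to 2 had 1 of 94 (1.06%, 0.0269 to 5.79), and those with 3 to 5 had 0 of 45, which allows up to 6.67%. Those with 6 to 10 had 0 of 22, with an exact upper bound of 15.4%, above the 14% of other genes. The members with more CG, 2 with 11 to 20 and 1 with 21 or more, had none. At the rates of other genes in the same CG classes, 6.32 of the 164 members (3.85%) would carry one. The observed 1 lies below that, and the interval of its share ends just under it. Wild type hotspots at starts showed no such order, with 0.575%, 0.808%, 1.68%, 0.948% and 0.814% over the same classes. Genes are not independent replicates, and the part of CG content in the members' low share was not tested.

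**Figure D5:**
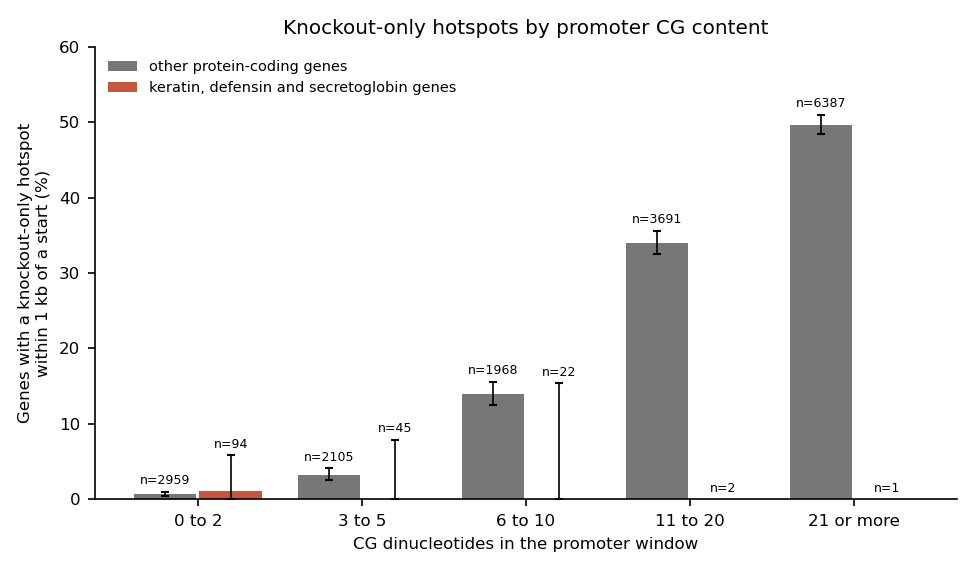
Share of genes (y axis, percent) with a knockout-only hotspot centred within 1 kb of a start, by the number of CG dinucleotides in the promoter window (x axis), for members (red) and other protein-coding genes (grey). Bars of other genes go from 0.642% to 49.7%, and 94 and 45 of the 164 members lie in the first and next class, and error bars are exact 95% intervals, left out for classes of 3 genes or fewer.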

How the data were processed

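The analysis started from the 2 deposited DMC1 hotspot lists, 1 per genotype, with the Y chromosome left out per the list names. Build mm10 and the tools BWA, Bowtie2, CASAVA and MACS2 are named in the submitters' processing notes, with no versions or roles. Pooling of animals was not given in the sources used here. Each list was therefore taken as 1 sample, and no test between genotypes was made. The deposited read count per hotspot is a whole number. The deposited strength is a signal value, the deposited background an estimate in whole reads, and strength equalled reads minus background for 100% of hotspots. The deposited percent of summed strength and the rank score, both made by the authors within a list, were used for the scale and for ranks. The lists held 13480 and 22034 hotspots with 4376692 and 4203380 reads. Medians were 163 and 116 reads a hotspot, and the lowest 28 and 23. Total library depth was not used here. Hotspots were called shared at an overlap of 1 bp (11487 pairs).

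Genes and promoter windows came from RefSeq tables (GRCm38.p6, the assembly of mm10). The samples of 13-day mice (H3K4me3 and input) were not analysed here. Chromosome spans ran from 3 Mb to the last hotspot or gene. The counting of gene ends, clusters and overlaps was tested on simulated data. The families, lists and tests were chosen with earlier results of these data known. Named were members with a hotspot within 2 kb of an end, the strongest hotspots of each cluster and its flanks, and listed genes with a hotspot. Hotspots that fall outside these rules and are named were chosen after their values were seen. Exact 95% intervals (Clopper-Pearson for shares, Poisson for counts) was computed with scipy 1.17.1. Alternatives were window, cluster gap, flank width, overlap, strength scale, stricter lists and leaving out each cluster.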

Additional observations from a re-analysis of the deposited data

How the results depend on the processing

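No paired analysis was possible because each deposited list holds 1 value per hotspot and no replicate columns, so neither samples nor replicate numbers could be left out or paired. The counts of members with a hotspot are small. In the knockout their share was under that of all genes at each setting below. With a window of 500 bp the members with a wild type, knockout and knockout-only hotspot were 1, 2 and 1 (all genes 0.929%, 23.6% and 22.8%). With 2 kb the knockout count was 8 (all genes 30.5%), and with an overlap of 50% all 3 counts were as reported. With starts alone the knockout and knockout-only counts were 3 and 1. With hotspots above the median strength of their list, the counts were 1, 0 and 0 (all genes 0.934%, 12.1% and 11.4%). With the knockout list cut to the size of the wild type list, knockout and knockout-only counts were 1 and 1 (all genes 16.0% and 14.6%).

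Densities inside clusters in the stronger hotspots were 0.792 per Mb in the wild type, 1.06 in the knockout and 0.396 for knockout-only hotspots (autosomes 2.60, 4.09 and 1.90), and in the flanks the knockout and knockout-only values were 3.50 and 1.75. With the knockout list cut, the knockout and knockout-only densities inside were 1.19 and 0.264 (autosomes 5.08 and 1.66). Leaving out each cluster in turn gave 1.74 to 4.01 per Mb in the wild type, 2.60 to 5.27 in the knockout and 1.34 to 2.53 for knockout-only hotspots, with each highest value without the secretoglobin cluster. Without both clusters of copied promoters, an alternative chosen after seeing the data, they were 4.61, 6.24 and 3.26. The median wild type strength inside clusters was 427 among the stronger hotspots, since weaker ones were removed. The median log2 ratio of the 13 shared hotspots, -0.31 with an order-statistic interval of -1.31 to 1.20, was -0.58 on strengths as deposited, -0.50 on percent of summed strength and -0.82 among the stronger hotspots. Leaving out each cluster in turn, also chosen after seeing the data, gave -0.40 to 0.36. The other alternatives moved counts by at most 1.5 times and kept densities and medians within the interval of the reported value. The lists' depth limits what an absent hotspot can show.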
